A study of Mus musculus with 16 samples.

Results

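The genes described here are the mouse MHC genes and the genes that load their products with antigen. They were chosen by name, as all symbols that start with H2- together with B2m, Tap1, Tap2, Tapbp, Tapbpl, Erap1, Nlrc5, Ciita, Cd74, Rfx5, Rfxap, Rfxank, Calr, Pdia3, Ifi30, Cd1d1 and Mr1. The rule found 61 of the 47069 genes in the table. Of these, 42 belong to the class I pathway (31 heavy chain genes, 9 genes of the loading machinery and the 2 class I-like genes Cd1d1 and Mr1) and 18 to the class II pathway (12 chain genes and 6 other genes). The remaining gene, H2-Ke6, carries the name of the region but encodes a dehydrogenase and no MHC chain.

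The study asked how an inhibitor of Notch signaling alters gene expression in macrophages that receive LPS together with immune complexes (ICs). BMMs of C57BL/6 mice of 8 to 10 weeks were grown from bone marrow in L929-conditioned medium until day 7 and primed overnight with 10 ng/mL IFNγ. They were then activated for 1 hr with 100 ng/mL Salmonella LPS and ovalbumin coated with rabbit IgG. The GSI group received 25 µM DAPT, which blocks the protease that releases the Notch intracellular domain, and the other group received 0.01% DMSO as its vehicle. The study's methods describe an overnight incubation with inhibitor or vehicle before activation, but a shorter pretreatment is given for other experiments, so the length of exposure to DAPT in these libraries is uncertain. Both groups therefore carried IFNγ priming, LPS and ICs, and no resting or unprimed cells were compared. Each group had 2 replicates, and each replicate had 4 columns of counts, taken as its sequencing runs, that were summed. GEO's labels do not say whether the replicates came from separate cultures or animals, so the p-values measure only the spread between these libraries, which may be technical. DAPT blocks γ-secretase as a whole, which has substrates other than Notch.

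Class I molecules display peptides from the cytosol to CD8+ T cells. Their heavy chain pairs with β2-microglobulin in the endoplasmic reticulum (ER), where TAP imports peptides cut by the proteasome and tapasin, calreticulin and PDIA3 help to load them. Class II molecules display endosomal peptides to CD4+ T cells. The invariant chain (Cd74) guides them to endosomes, where H2-DM exchanges its remnant for antigenic peptides and H2-O restrains H2-DM. IFNγ raises both pathways in macrophages, through the transactivators NLRC5 for class I and CIITA for class II, which act on promoters bound by the RFX complex.

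The summed libraries held 42694655 to 56932059 counts. All 9 macrophage markers were detected in every library, so the labelled cell type was found. Their summed levels were 12362 and 12570 CPM (counts scaled to the size of the library) with DMSO and 9559 and 10481 CPM with GSI. In this paragraph, lower and higher count only genes that passed the test described below. With GSI, 7 of the macrophage markers were lower and 1 (Mertk) was higher. Cd68 did not pass, at 939 and 1001 CPM with DMSO and 1141 and 1058 CPM with GSI. The 10 dendritic cell markers summed to 282.6 and 268.4 CPM with DMSO and to 161.4 and 160.7 with GSI, with 5 lower and 3 at no more than 5 counts in each library (Flt3, Cd209a and Ccl17). The 7 B cell markers summed to 10.7 and 10.3 CPM with DMSO and to 3.68 and 3.38 with GSI, of which Ighm made up most, and the 7 T cell markers (Lck higher) and 8 neutrophil markers summed to at most 3.79 CPM per library, with 5 of each list at no more than 5 counts in each library. The part of these shifts in the results was not tested, and in bulk RNA fewer cells of a type and less RNA per cell cannot be told apart.

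More class I than class II genes passed the test, and those of class I that passed were all higher with GSI. A gene was called when its false discovery rate (FDR, Benjamini-Hochberg over 13211 genes tested with edgeR) was under 0.05, and 39 of the 61 members had enough counts to be tested. Of the 24 tested class I genes, 16 were higher with GSI, 0 were lower and 8 were not called. By comparison, 19.0% of all tested genes were called higher and 21.9% lower. Of the 14 tested class II genes, 1 was higher, 1 was lower and 12 were not called. The median log2 fold change (GSI against DMSO, as everywhere here) was 0.50 over the 13 tested class I chains and -0.01 over the 8 tested class II chains, beside 0.01 over all tested genes. All 13 tested class I chains had at least 231 counts in every library, those of the DMSO group included.

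**Figure D1:**
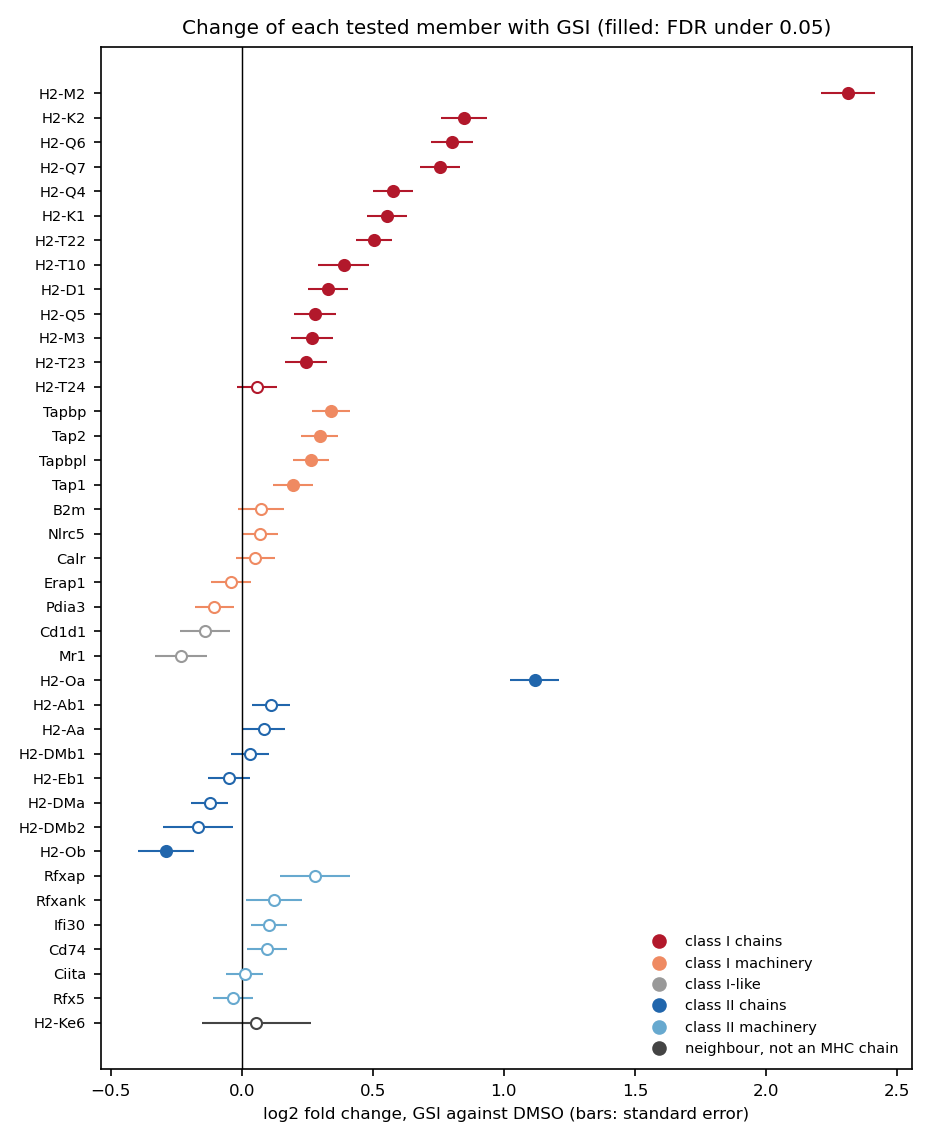
Log2 fold change of GSI against DMSO (x axis) for each of the 39 tested members (y axis), with 2 libraries per group, bars for the standard error, colors for the gene group and filled points for an FDR under 0.05. Class I chains run from 0.06 (H2-T24) to 2.31 (H2-M2), while 6 of 8 class II chains are open points near 0.

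H2-K1 and H2-D1 encode the classical class I heavy chains of this strain. H2-K1 was read at 4031 and 4365 CPM with DMSO and at 6027 and 6298 CPM with GSI. H2-D1 was at 4964 and 5270 CPM with DMSO and at 6235 and 6626 CPM with GSI. For both genes each GSI library lay above each DMSO library. Such full separation of 2 against 2 libraries has a two-sided exact permutation p of 0.333, here and for the genes below. Its share over all tested genes was not counted. H2-K1 rose 1.47-fold (log2 fold change 0.55, SE 0.077, FDR 7.86e-06) and H2-D1 rose 1.26-fold (log2 fold change 0.33, SE 0.077, FDR 0.00172). The DMSO libraries held 81.2 and 82.8 H2-K1 counts for every 100 H2-D1 counts and the GSI libraries 96.7 and 95, so that the difference between the 2 genes was narrower with GSI in both libraries. Per kb of exon they were the most abundant chains of either class, with mean levels of 2239 CPM per kb for H2-D1 and 1763 CPM per kb for H2-K1. The neighbouring H2-K2, annotated as a transcribed pseudogene, was far less abundant at 11.3 CPM per kb. It was at 13.6 and 13.9 CPM with DMSO and 25.8 and 23.8 CPM with GSI, a rise of 1.80-fold (log2 fold change 0.85, SE 0.087, FDR 1.47e-07).

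The H2-Q genes encode nonclassical class I chains, among them Qa-2, the product of H2-Q7 and its close relatives. H2-Q7 was at 150.6 and 174.3 CPM with DMSO and at 267.8 and 281.4 CPM with GSI. H2-Q6 was at 222.2 and 264.4 CPM with DMSO and at 411.2 and 437.9 CPM with GSI. H2-Q4, the source of the Qb-1 antigen, was at 432.3 and 475.2 CPM with DMSO and at 653 and 701.8 CPM with GSI. The groups did not overlap in any of the 3 genes, which rose by log2 fold changes of 0.76 (H2-Q7, SE 0.077, FDR 1.41e-07), 0.80 (H2-Q6, SE 0.081, FDR 1.3e-07) and 0.58 (H2-Q4, SE 0.076, FDR 3.99e-06). H2-Q5, annotated as a polymorphic pseudogene, rose less, from 65.6 and 78.2 CPM to 85.8 and 88.7 CPM (log2 fold change 0.28, FDR 0.00887). Its call was lost without DMSO replicate 1 (0.16, FDR 0.234).

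The H2-T genes on the same chromosome encode further nonclassical chains. H2-T23, which encodes Qa-1, the ligand of the NKG2A receptor of natural killer cells, was the most abundant of them, at 996 and 1100 CPM with DMSO and 1179 and 1306 CPM with GSI. Its rise was small (log2 fold change 0.25, SE 0.079, FDR 0.017) and did not pass without DMSO replicate 1 (0.17, FDR 0.206) or without GSI replicate 2 (0.17, FDR 0.111). H2-T22, whose product is recognised by some γδ T cells, was at 255.2 and 259.3 CPM with DMSO and at 357 and 373.1 CPM with GSI. It rose 1.42-fold (log2 fold change 0.50, SE 0.070, FDR 7.2e-06), with the GSI libraries above both DMSO libraries. Its near copy H2-T10, annotated as a polymorphic pseudogene, rose from 9.97 and 10.9 CPM to 13.5 and 13.9 CPM (log2 fold change 0.39, FDR 0.00286). H2-T24 was the 1 tested class I chain that was not called: its levels of 80.02 and 74.91 CPM with DMSO and 85.5 and 75.8 CPM with GSI overlapped (log2 fold change 0.06, SE 0.076, FDR 0.569).

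H2-M2 had the largest log2 fold change among the members. This class I-related gene lies at the far end of the MHC, 3483.2 kb from the start of H2-K1, and had 231 and 330 counts with DMSO against 1445 and 1277 counts with GSI. These counts correspond to 5.37 and 5.82 CPM with DMSO and to 29.9 and 25.9 CPM with GSI. The groups were far apart and H2-M2 was 4.97-fold higher with GSI (log2 fold change 2.31, SE 0.103, FDR 1.29e-12). It was the 1 member beyond the study's second threshold, an absolute log2 fold change over 1.5, which 0.742% of all tested genes passed upwards. The gain was larger than that of H2-K1, with 1.33 H2-M2 counts per 1000 H2-K1 counts in each DMSO library and 4.96 and 4.11 in the GSI libraries. H2-M3, which presents N-formylated peptides such as those of bacteria, was at 94.2 and 103 CPM with DMSO and at 109.6 and 127.8 CPM with GSI. Its rise (log2 fold change 0.27, SE 0.080, FDR 0.011) did not pass without DMSO replicate 1 (0.20, FDR 0.108) or without GSI replicate 2 (0.15, FDR 0.156).

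**Figure D2:**
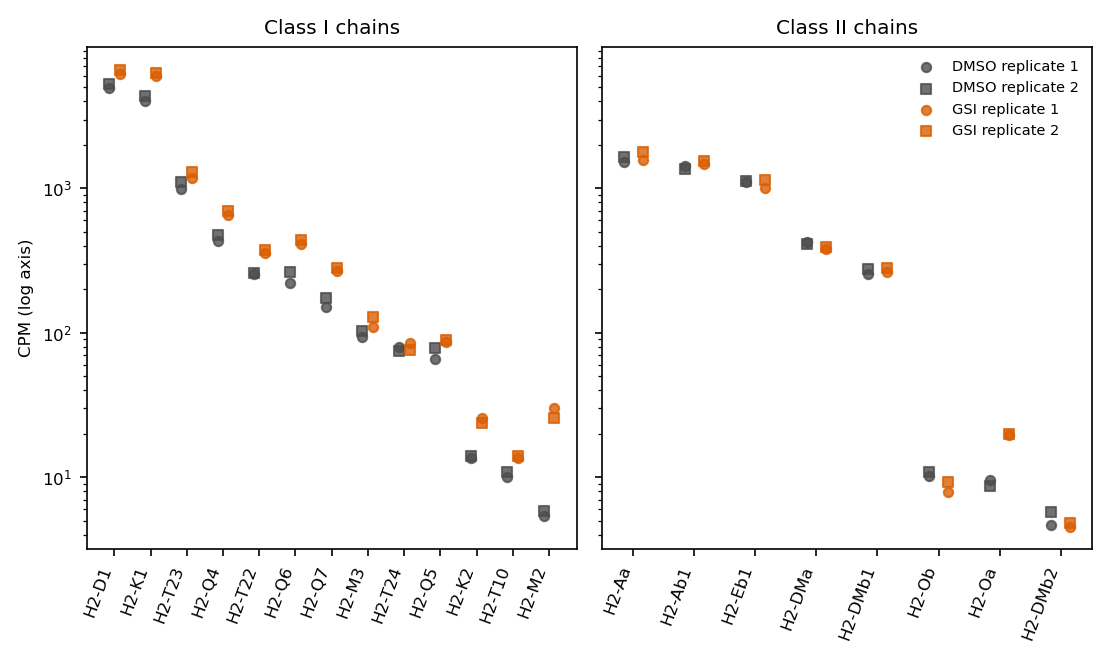
CPM on a log axis for the 13 tested class I chains (left) and the 8 tested class II chains (right), with 1 point per library, DMSO in grey and GSI in orange. The GSI points lie above the DMSO points for all class I chains but H2-T24, most widely for H2-M2 (5.37 and 5.82 against 29.9 and 25.9 CPM), and on the right only H2-Oa, H2-Ob, H2-DMa and H2-Ab1 are separated. Full separation of 2 against 2 libraries has a two-sided exact permutation p of 0.333, and its share over all tested genes was not counted.

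Summed over all 31 chain genes, class I transcripts were at 11320 and 12195 CPM with DMSO and at 15481 and 16380 CPM with GSI, a ratio of means of 1.35. Without H2-K1 and H2-D1 the ratio of the summed levels of the other chains was 1.37. The 12 class II chains summed to 4763 and 4851 CPM with DMSO and to 4725 and 5198 CPM with GSI, a ratio of 1.03 with overlapping groups. The libraries held 2.38 and 2.51 class I chain counts for each class II chain count with DMSO and 3.28 and 3.15 with GSI. This ratio separated the groups, but an exact permutation test of 2 against 2 libraries cannot give a two-sided p below 0.333. All 61 members together took 3.78% and 3.87% of the counts with DMSO and 4.39% and 4.42% with GSI.

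The class I genes are partly copies of one another, and reads that fit several genes cannot be assigned from the counts. Of the 50-base windows of their transcripts, 98.4% for H2-M2, 99.4% for H2-M3, 96.8% for H2-T24, 90.4% for H2-K1, 90.6% for H2-K2, 87.2% for H2-D1 and 85.5% for H2-T23 occurred in no other gene's transcripts. In these 7 genes the calls stood at 6 higher and 0 lower. The share was lower for H2-Q7 (73.5%), H2-Q6 (65%), H2-Q4 (63.6%) and H2-Q5 (63.6%), and lowest for H2-T10 (49.6%) and H2-T22 (46.5%), which shared windows mostly with each other. The separate values of these genes are therefore uncertain. Sums within a family do not depend on how reads were split among its members, but still on the split with genes outside the sum, such as H2-Q10 for H2-Q7 and Gm11131 for H2-Q4. If reads that fit several genes were dropped in counting, they are missing from the sums too. How such reads were handled is not given in the sources used here. H2-Q4 to H2-Q7 together were at 870.7 and 992.1 CPM with DMSO and at 1418 and 1510 CPM with GSI (ratio 1.57), and H2-T10 with H2-T22 at 265.2 and 270.2 against 370.4 and 387.1 CPM (ratio 1.41). H2-Q4, H2-T10 and H2-T22 also have exons facing a gene on the other strand. Among the 10 tested chains that have none, 9 were higher.

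The loading machinery of class I was divided. Tapbp encodes tapasin, which bridges TAP and the heavy chain, and it was at 1414 and 1491 CPM with DMSO and at 1820 and 1861 CPM with GSI. Tap2, a subunit of the peptide transporter, was at 348.2 and 360.6 CPM with DMSO and at 424.1 and 447.6 CPM with GSI. Tapbpl, which encodes the tapasin-related peptide editor TAPBPR, was at 165.9 and 168 CPM with DMSO and at 202.6 and 198.4 CPM with GSI. In all 3 genes the groups were separate, with log2 fold changes of 0.34 (Tapbp, SE 0.074, FDR 0.000914), 0.30 (Tap2, SE 0.071, FDR 0.0021) and 0.26 (Tapbpl, SE 0.068, FDR 0.00396). Tap1, the partner of Tap2, rose from 791.6 and 844.6 CPM to 898.5 and 975.6 CPM with a log2 fold change of 0.20 (SE 0.076, FDR 0.0439). That call was lost without DMSO replicate 1 (0.15, FDR 0.289), DMSO replicate 2 (0.24, FDR 0.0658) or GSI replicate 2 (0.14, FDR 0.225), and by a narrow margin under RLE factors (FDR 0.0519) or a stricter count filter (FDR 0.0504).

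Several of these genes face transcripts on the other strand. Tap2 exons lie across from Gm15821, which had 74 and 94 counts with DMSO and 8 and 2 with GSI, and from Gm20496, which had 96 and 148 against 15 and 0. Tapbp lies across from Gm19412, which had 88 and 110 counts with DMSO and 35 and 28 with GSI. These counts were below those of Tap2 and Tapbp in every library and were lower with GSI, where Tap2 and Tapbp were higher; their part in these results was not tested. Tap1 shares exon bases with Psmb9 on the other strand. Tapbp also shares 149 exon bases with a gene on its own strand, Zbtb22, which had 1229 and 1890 counts with DMSO and 1782 and 1791 with GSI. Of the 50-base windows of Tapbp, 76.8% were unique. The library kit keeps strand, but the strand setting of the counting is not given in the sources used here.

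B2m, the light chain that every class I molecule needs, was not called. It was the most abundant member per kb (9784 CPM per kb) and was at 8515 and 7888 CPM with DMSO and at 9469 and 7785 CPM with GSI. The GSI libraries lay on both sides of the DMSO libraries (log2 fold change 0.07, SE 0.089, FDR 0.542). Its value rested on single libraries, at 0.21 without GSI replicate 2 (FDR 0.0289) and -0.08 without GSI replicate 1 (FDR 0.503). There were 133 and 155 class I chain counts per 100 B2m counts with DMSO and 163 and 210 with GSI, so that the highest DMSO library was close to the lower GSI library. The lectin chaperone Calr (log2 fold change 0.05, SE 0.075), the disulfide isomerase Pdia3 (-0.10, SE 0.073) and the peptide-trimming protease Erap1 (-0.04, SE 0.076) were not called either, with an FDR from 0.274 to 0.702. Nlrc5, the transactivator of class I genes, was at 285.3 and 300.2 CPM with DMSO and at 306.1 and 308.9 CPM with GSI, and the difference did not pass (log2 fold change 0.07, SE 0.070, FDR 0.443).

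The class I-like genes were low and not called. Mr1, which presents metabolites of vitamin B synthesis to MAIT cells, was at 11.2 and 10.9 CPM with DMSO and at 9.12 and 9.64 CPM with GSI (log2 fold change -0.23, SE 0.099, FDR 0.0677). Cd1d1, which presents lipids to NKT cells, had overlapping levels of 16.2 and 14.7 CPM and of 13.1 and 14.9 CPM (log2 fold change -0.14, SE 0.096, FDR 0.261).

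The classical class II chains did not pass the test. In this strain they are H2-Aa and H2-Ab1, the chains of I-A, since the α chain gene of I-E is not expressed there, and H2-Ea-ps, the annotated pseudogene of that chain, had 0 counts in all 4 libraries. H2-Ab1 was at 1420 and 1371 CPM with DMSO and at 1471 and 1546 CPM with GSI (log2 fold change 0.11, SE 0.074, FDR 0.236). H2-Aa was at 1534 and 1646 CPM with DMSO and at 1579 and 1797 CPM with GSI (log2 fold change 0.09, SE 0.080, FDR 0.413). H2-Ab1 was separated by a narrow gap and H2-Aa overlapped. H2-Eb1, the β chain of I-E, was read at 1104 and 1119 CPM with DMSO and at 1001 and 1150 CPM with GSI although its partner was at 0 (log2 fold change -0.05, SE 0.079, FDR 0.662). Per kb H2-Eb1 (563 CPM per kb) was at the level of H2-Ab1 (565 CPM per kb).

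The peptide exchange factor H2-DM was likewise not called. H2-DMa was at 423.7 and 414.6 CPM with DMSO and at 379.5 and 390.5 CPM with GSI (log2 fold change -0.12, SE 0.070, FDR 0.171), and its exons lie partly across from Brd2 on the other strand. Its β chain comes from paired genes that differ widely in level. H2-DMb1 was at 256.5 to 281.1 CPM (log2 fold change 0.03, FDR 0.767) and H2-DMb2 at 4.55 to 5.73 CPM (log2 fold change -0.17, FDR 0.345), with 1.7 to 2.08 H2-DMb2 counts per 100 H2-DMb1 counts in the 4 libraries. Only 77.3% of the windows of H2-DMb1 and 74.1% of those of H2-DMb2 were unique, so the low H2-DMb2 counts are uncertain.

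The chains of H2-O, the inhibitor of H2-DM, moved in opposite directions. H2-Oa, its α chain, had 409 and 496 counts with DMSO and 950 and 980 with GSI, or 9.51 and 8.74 CPM against 19.6 and 19.8 CPM. It was 2.17-fold higher with GSI (log2 fold change 1.12, SE 0.093, FDR 8.44e-09), the second largest difference of the members after H2-M2. H2-Ob, its β chain, had 438 and 613 counts with DMSO and 384 and 456 with GSI, or 10.2 and 10.8 CPM against 7.94 and 9.23 CPM. The groups did not overlap in either gene. H2-Ob fell by 0.29 on the log2 scale (SE 0.107, FDR 0.0349), but this call was lost with DESeq2 (FDR 0.114), without DMSO replicate 2 (-0.25, FDR 0.172) and without GSI replicate 1 (-0.19, FDR 0.254). There were 0.934 and 0.809 H2-Oa counts per H2-Ob count with DMSO and 2.47 and 2.15 with GSI. Both genes were low, at mean levels of 10.3 CPM per kb for H2-Oa and 1.77 CPM per kb for H2-Ob. Every H2-Ob window was unique, while 15.5% of the H2-Oa windows matched BC051537 on the other strand, which had at most 8 counts in a library.

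The remaining class II genes were not called. Cd74 was the second most abundant member per kb (3979 CPM per kb), at 6277 and 6639 CPM with DMSO and 6651 and 7155 CPM with GSI (log2 fold change 0.10, SE 0.077, FDR 0.34). There were 75.9 and 73.1 class II chain counts per 100 Cd74 counts with DMSO and 71.1 and 72.7 with GSI. Ciita, the transactivator of class II genes, was at 177.8 and 188.9 CPM with DMSO and at 180.7 and 189 CPM with GSI, which is nearly the same range (log2 fold change 0.01, SE 0.070, FDR 0.908). Ifi30, the thiol reductase that opens disulfide bonds in endosomal antigens, was at 161.3 to 178.4 CPM in the 4 libraries (log2 fold change 0.11, SE 0.069, FDR 0.232). The 3 RFX subunits were at 45.0 to 49.1 CPM for Rfx5 (log2 fold change -0.03), 7.25 to 8.20 CPM for Rfxank (0.12) and 4.92 to 6.93 CPM for Rfxap (0.28), with an FDR of 0.756, 0.382 and 0.0984. Rfxap was highest in GSI replicate 1 and would be called without GSI replicate 2 (0.45, FDR 0.00797), whereas it was at 0.09 without GSI replicate 1 (FDR 0.683).

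The members lie mostly on chromosome 17, where classes alternate. Tap1 and Tap2 sit inside the class II region, together with Psmb8 and Psmb9 of the immunoproteasome, while Tapbp lies at -84.4 kb, on the other side of H2-K1, and the other loading genes are on other chromosomes. Tap1, Psmb9, Psmb8 and Tap2, at 187.2 to 203.2 kb from the start of H2-K1, were all called higher, with log2 fold changes of 0.20, 0.30, 0.40 and 0.30. Their neighbour on one side, H2-DMb1 at 152.7 kb, was not called and the one on the other side, H2-Ob at 238.6 kb, was lower. Between H2-K1 and H2-Oa, which lies at 92 kb, stands H2-Ke6 at 27.7 kb, which was at 1.51 and 1.45 CPM with DMSO and 1.34 and 1.72 CPM with GSI (log2 fold change 0.06, SE 0.207, FDR 0.852). H2-Ke6 shares 70.5% of its windows with the readthrough gene Gm20427.

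**Figure D3:**
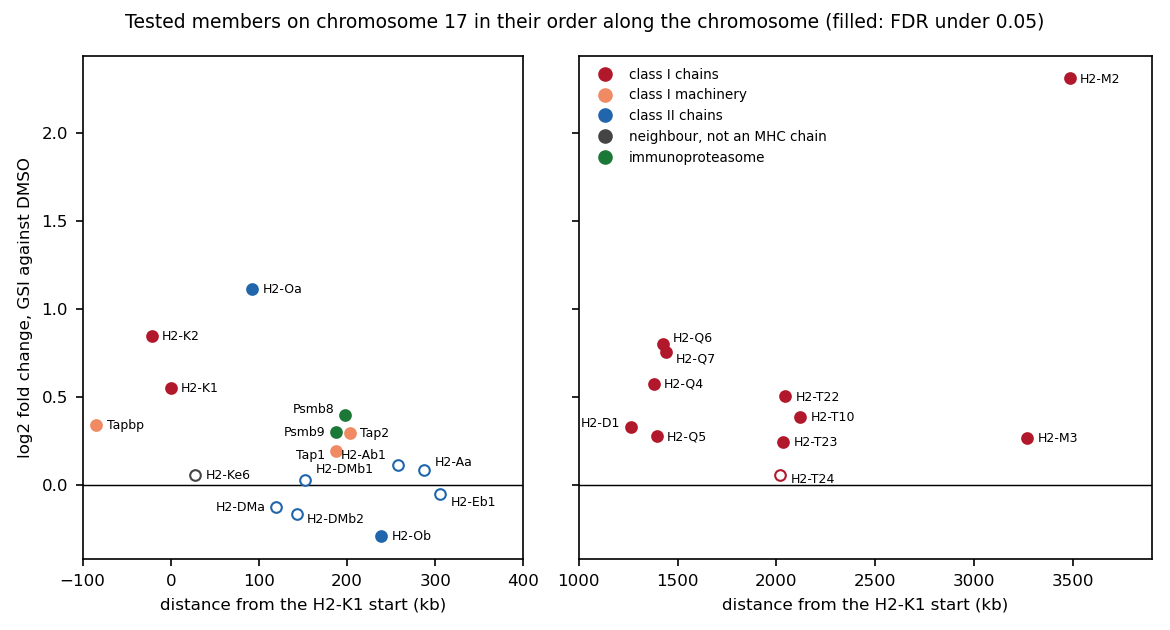
Log2 fold change of GSI against DMSO (y axis) for tested members on chromosome 17, with Psmb8 and Psmb9, against the distance of each gene start from the H2-K1 start in kb (x axis, in 2 panels). Filled points have an FDR under 0.05, and the filled points of Tap1, Psmb9, Psmb8 and Tap2 (0.20 to 0.40) stand between the open point of H2-DMb1 (0.03) and the filled point of H2-Ob (-0.29).

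Of the 22 members that were not tested, 15 had 0 counts in every library, which allows up to 3 counts or 0.0527 to 0.0703 CPM per library by counting error alone. They include the H2-M10 genes, H2-M1, H2-M9, H2-M11, H2-Q3 and H2-T3 of class I and H2-Ea-ps, H2-Pa and H2-Pb of class II. The other 7 (H2-Bl, H2-M5, H2-M6-ps, H2-Q1, H2-Q2, H2-Q10 and H2-Eb2) had at most 10 counts in a library. H2-Q10, whose product is a secreted class I chain of the liver, had 5 and 9 counts with DMSO and 4 and 9 with GSI. H2-Eb2 had 10 and 4 counts with DMSO and 9 in each GSI library. No difference between the groups is given for these 22 genes.

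Promoter sequences of 300 bases, from 250 before to 50 after the start, were available from RefSeq for 41 members. They are shown for 4 genes of the class I pathway that differ in their response, where the capitals mark matches to the NF-kB site and, in H2-M2, also the X and Y box letters.
H2-K1, chr17:34000298-34000597, minus strand: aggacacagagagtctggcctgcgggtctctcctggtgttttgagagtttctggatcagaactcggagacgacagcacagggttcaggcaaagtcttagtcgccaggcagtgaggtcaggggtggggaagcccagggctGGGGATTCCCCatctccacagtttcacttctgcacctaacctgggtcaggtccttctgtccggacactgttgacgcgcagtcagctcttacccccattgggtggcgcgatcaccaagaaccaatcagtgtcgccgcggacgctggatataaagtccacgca
H2-Q7, chr17:35438905-35439204, plus strand: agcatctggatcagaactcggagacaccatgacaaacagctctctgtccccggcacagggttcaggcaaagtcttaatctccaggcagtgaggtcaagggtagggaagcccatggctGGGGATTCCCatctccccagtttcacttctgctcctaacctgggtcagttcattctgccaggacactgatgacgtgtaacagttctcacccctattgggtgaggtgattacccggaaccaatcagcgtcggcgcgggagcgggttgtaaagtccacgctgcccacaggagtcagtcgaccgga
H2-M2, chr17:37483505-37483804, minus strand: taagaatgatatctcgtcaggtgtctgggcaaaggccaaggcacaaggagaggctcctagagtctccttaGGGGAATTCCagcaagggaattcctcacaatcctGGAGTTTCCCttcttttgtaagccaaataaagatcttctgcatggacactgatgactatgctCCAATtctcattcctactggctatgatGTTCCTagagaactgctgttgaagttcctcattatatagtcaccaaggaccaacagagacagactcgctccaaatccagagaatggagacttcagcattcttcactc
B2m, chr2:122147437-122147736, plus strand: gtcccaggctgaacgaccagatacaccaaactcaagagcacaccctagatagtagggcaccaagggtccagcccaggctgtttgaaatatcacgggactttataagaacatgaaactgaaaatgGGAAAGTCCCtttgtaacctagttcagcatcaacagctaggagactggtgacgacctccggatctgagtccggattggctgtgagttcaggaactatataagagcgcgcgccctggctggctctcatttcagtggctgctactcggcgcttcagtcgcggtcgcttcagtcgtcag

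All 9 tested class I chains with such a window held the letters CCAAT on either strand, as did all 7 tested class II chains and 37.4% of the 32851 windows of all genes. The NF-kB site (searched by name, on both strands) was matched in 8 of the 9 tested class I chains, namely H2-D1, H2-K1, H2-M2, H2-M3, H2-Q4, H2-Q6, H2-Q7 and H2-T22, and not in H2-T23. It was matched in 0 of 13 class I chains that had too few counts to be tested, in 1 of 7 tested class II chains (H2-Aa) and in 8.46% of all windows. Matches were also found in B2m, Calr and Ifi30, which were not called. The matches in H2-K1 overlap each other and are counted separately. The interferon-stimulated response element (ISRE, searched by name) was matched in H2-T22, H2-T23, B2m and Erap1 (3.44% of all windows). The letters TGGGAA, the core bound by RBPJ, were in 3 of the 9 tested class I chains (H2-M3, H2-Q4 and H2-Q7), 10 of the 13 not tested, 3 of the 7 tested class II chains (H2-Aa, H2-Oa and H2-Ob) and 7 of 10 machinery and class I-like genes (B2m, Calr, Ifi30, Mr1, Pdia3, Tap1 and Tapbp). They were found for 23 of the 41 members (56.1%) and in 25.6% of all windows. For members with several windows (H2-K1, H2-DMa and H2-M9) a match in any window counted, for every motif. The shares of all windows are per window, so the member shares are not directly comparable with them. Of the 23 members, 10 were class I chains that were not tested, among them H2-M10 genes with 0 counts in every library. A match describes the letters and is no evidence of binding.

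Class II promoters carry paired X and Y boxes, which bind the RFX complex and NF-Y, and class I promoters are bound by the RFX complex too. The letters AGNNAC followed by ATTGG after 15 to 35 bases, on either strand, were found in 4 of 7 tested class II chains (H2-DMb1, H2-Eb1, H2-Oa and H2-Ob), in 1 of 9 tested class I chains (H2-M2) and in 3.82% of all windows. The pattern found no match in H2-Aa, H2-DMa and H2-DMb2. Fixed letters can miss variant sites, so a promoter of either class without a match may still hold the boxes. The Y box letters are also a CCAAT match. The H2-Oa and H2-Ob windows are shown because these genes moved in opposite directions, and H2-Eb1 as a gene that was not called, with capitals for the X and Y box letters.
H2-Eb1, chr17:34305617-34305916, plus strand: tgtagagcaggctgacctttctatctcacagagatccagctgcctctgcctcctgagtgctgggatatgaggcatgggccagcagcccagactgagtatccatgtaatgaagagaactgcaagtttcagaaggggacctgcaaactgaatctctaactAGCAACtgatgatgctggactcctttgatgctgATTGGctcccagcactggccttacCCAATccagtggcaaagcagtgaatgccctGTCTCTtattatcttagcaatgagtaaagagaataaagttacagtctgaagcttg
H2-Oa, chr17:34092129-34092428, plus strand: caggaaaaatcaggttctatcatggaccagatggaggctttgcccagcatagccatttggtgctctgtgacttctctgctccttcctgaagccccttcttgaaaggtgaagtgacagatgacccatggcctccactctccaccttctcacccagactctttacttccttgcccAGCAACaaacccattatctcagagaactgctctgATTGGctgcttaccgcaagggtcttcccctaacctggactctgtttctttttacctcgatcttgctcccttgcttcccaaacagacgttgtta
H2-Ob, chr17:34238655-34238954, plus strand: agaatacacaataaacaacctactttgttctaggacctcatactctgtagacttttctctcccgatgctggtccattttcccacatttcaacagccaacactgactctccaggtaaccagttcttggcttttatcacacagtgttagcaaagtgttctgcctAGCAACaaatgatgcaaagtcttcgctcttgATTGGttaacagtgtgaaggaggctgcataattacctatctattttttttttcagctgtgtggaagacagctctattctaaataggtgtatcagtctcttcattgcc

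All 3 class II windows thus hold the X box letters AGCAAC on the sense strand, although H2-Oa was higher, H2-Ob was lower and H2-Eb1 was not called. The H2-M2 match and a second match in H2-Eb1 lie on the other strand.

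Other genes of antigen presentation were read from the same fit, in which 19.0% of all tested genes were higher and 21.9% lower. Of the 6 genes of the immunoproteasome and its PA28 activator, which shape the peptides for class I, 5 were higher (83.3%) and 0 lower (median log2 fold change 0.35). The largest differences were in the PA28 subunit Psme2 (513.9 and 534.6 against 763 and 824.4 CPM, log2 fold change 0.60) and the catalytic subunits Psmb10 (0.52) and Psmb8 (0.40). The 3 catalytic subunits of the constitutive proteasome that these replace, Psmb5 (0.68), Psmb6 (0.62) and Psmb7 (0.58), were also all higher. Of 8 ER chaperones and folding factors, 0 were higher and 1 (12.5%) was lower, the glucosyltransferase Uggt1 (log2 fold change -0.38, FDR 0.000289), which inspects glycoproteins and class I complexes. Psme3 (0.03, FDR 0.798) and the other 7 ER genes were not called.

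Of 9 endosomal proteases and turnover factors of class II, 2 were higher and 1 was lower, shares of 22.2% and 11.1% beside 19.0% and 21.9% of all tested genes. The asparagine endopeptidase Lgmn was lower (704.5 and 694.2 against 527.2 and 528.7 CPM, log2 fold change -0.41, FDR 0.000118). The cathepsins Ctsb (0.26, FDR 0.0114) and Ctsd (0.23, FDR 0.027) were higher. The call of Ctsb was lost without DMSO replicate 1 (0.22, FDR 0.129), and that of Ctsd without DMSO replicate 1 (0.19, FDR 0.205), DMSO replicate 2 (0.26, FDR 0.0643) or GSI replicate 2 (0.15, FDR 0.14).

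Of 9 genes of the receptor, JAK kinases, IRF factors and Socs1, through which IFNγ acts, 1 was higher (11.1%) and 4 were lower (44.4%), beside 19.0% and 21.9% of all tested genes. The receptor chain Ifngr1 fell from 202.2 and 189.3 CPM to 123.7 and 131.3 CPM (log2 fold change -0.62, SE 0.071, FDR 6.97e-07) and the kinase Jak2 from 285.8 and 277.8 CPM to 194 and 198.5 CPM (log2 fold change -0.52, FDR 4.24e-06). The feedback inhibitor Socs1 rose from 39 and 43.2 CPM to 58.7 and 54.5 CPM (log2 fold change 0.46, FDR 7.46e-05). The other called genes, Irf2 (-0.41) and Jak1 (-0.20), were named after their values were seen. Irf2 kept its call but was at -0.59 without GSI replicate 1 and at -0.25 without GSI replicate 2. The call of Jak1 was lost without DMSO replicate 1 (-0.18, FDR 0.164), DMSO replicate 2 (-0.22, FDR 0.0735) or GSI replicate 1 (-0.18, FDR 0.0805).

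Of 11 further factors that act at class I and class II promoters, 1 was higher (9.09%) and 4 were lower (36.4%). The NF-kB subunit gene Rel fell from 489.4 and 487 CPM to 286.4 and 305.4 CPM (log2 fold change -0.72, SE 0.071, FDR 9.11e-08), Nfkb1 from 301.3 and 319.7 CPM to 226.4 and 231.9 CPM (-0.44, FDR 4.2e-05) and the acetyltransferase gene Kat2b from 102.2 and 87.7 CPM to 72.0 and 75.8 CPM (-0.36, FDR 0.000986). Ep300 (-0.31) was lower and Relb (0.21) was higher, both named after their values were seen. Ep300 lost its call without DMSO replicate 1 (-0.23, FDR 0.0607), and Relb without DMSO replicate 1 (0.13, FDR 0.318) or GSI replicate 2 (0.12, FDR 0.257). Of 10 co-stimulatory and T cell ligand genes, 2 were higher (20%) and 4 were lower (40%), beside the 19.0% and 21.9% of all tested genes. Among the called genes, the largest differences were in Tnfsf4, the OX40 ligand (-0.87, FDR 4.24e-07), Cd80, a ligand of CD28 (-0.83, FDR 3.56e-05), and Icosl, the ICOS ligand (-0.66, FDR 4.44e-07). Pdcd1lg2, at under 1 CPM, was at 0.88 and was not called (FDR 0.0772). Tnfsf9 (-0.46) was lower and Lgals9 (0.54) and Cd274 (0.21) were higher, named after their values were seen. Cd274 lost its call without DMSO replicate 1 (0.17, FDR 0.229), DMSO replicate 2 (0.25, FDR 0.06) or GSI replicate 1 (0.19, FDR 0.0671).

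**Figure D4:**
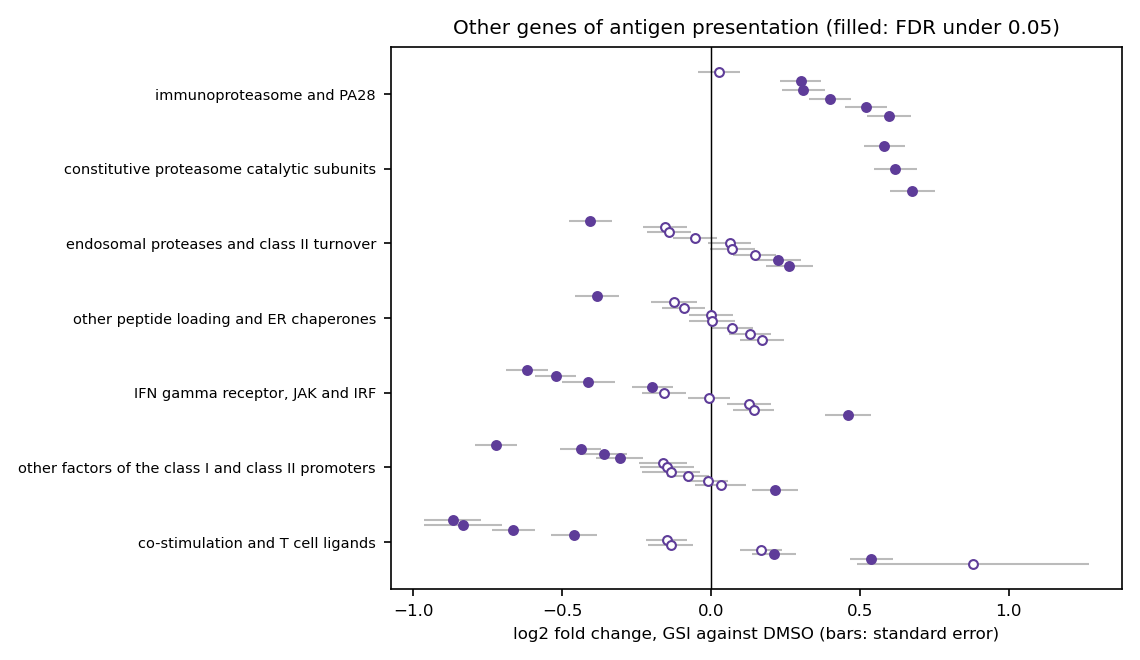
Log2 fold change of GSI against DMSO (x axis, bars for the standard error, 2 libraries per group) for each tested gene of 7 lists around antigen presentation (y axis), filled where the FDR is under 0.05. The proteasome lists lie to the right of 0 (0.03 to 0.68), while the lists of IFNγ signaling, promoter factors and co-stimulation hold filled points on both sides, with 4 lower genes each.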

How the data were processed

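Total RNA was made into strand-specific poly(A) libraries and sequenced on an Illumina NextSeq system. Per the study's methods, the authors trimmed adapters with Trimmomatic, aligned reads with STAR to mm10 (GRCm38) and counted them per gene with HTSeq; the submitters' processing notes give STAR 2.5.0a. The deposited values are raw counts of 47069 genes in 16 columns, all used. The 4 columns of a replicate were summed, because between them the chi-square per degree of freedom was 1.01 to 1.03 over genes with enough counts, against 14.7 and 16.6 between replicates.

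The test was edgeR 4.0.16 (R 4.3.3; filterByExpr, TMM, glmQLFit, glmQLFTest, group only, FDR under 0.05). An SE is the log2 fold change divided by the square root of F. CPM used TMM-adjusted library sizes. The floor was 3 counts per library and covers counting error only. Alternatives were DESeq2 1.42.0, RLE or no factors, other filters, the replicate block, single runs, a likelihood ratio test and leaving out each library. Scripts were tested on simulated data.

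Positions and exons came from GENCODE M21 (GRCm38), which held 98.77% of the gene IDs, and promoters from RefSeq (GRCm38.p6). Unique windows were counted in spliced GENCODE transcripts, on both strands. The members and lists were chosen with earlier results of these data known. Every tested member is named, members not tested are given by counts, and of each pathway list the 3 largest called differences with a mean of at least 1 CPM are named. An item of the IFNγ list and a promoter motif are not reported here.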

Additional observations from a re-analysis of the deposited data

How the results depend on the processing

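Across the 12 alternatives 13 of the 18 called members kept their direction and call: H2-D1, H2-K1, H2-K2, H2-M2, H2-Q4, H2-Q6, H2-Q7, H2-T10, H2-T22, H2-Oa, Tap2, Tapbp and Tapbpl. The 12 to 18 class I genes called higher were 12 without DMSO replicate 1 and 18 with the 16 runs as separate samples. Of class II genes, 2 were called; the count was 1 with DESeq2, 8 with the 16 runs as separate samples, and 1 to 3 when 1 library was left out. Of all genes, 385 passed both thresholds, against 154 with at least 10 counts required in every library, 178 with the 16 runs and 556 with every gene of at least 1 count. Counting only class I chains with at least 80 percent unique windows, a choice made after seeing the data, left 6 higher in place of 12. With 75-base windows 31 in place of 27 tested members had such a share.

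Of the 21 members that were not called, 10 changed sign when 1 library was left out. Their log2 fold changes then ran from -0.0005 to 0.1008 for Calr, -0.1174 to 0.0331 for Erap1, -0.0324 to 0.0535 for Ciita, -0.0215 to 0.0806 for H2-DMb1, -0.0849 to 0.0171 for Rfx5, -0.0298 to 0.1443 for H2-T24, -0.1499 to 0.0486 for H2-Eb1, -0.0751 to 0.2086 for B2m, -0.0086 to 0.1770 for H2-Aa and -0.1322 to 0.2224 for H2-Ke6. Others kept their sign but ranged widely, from 0.03 to 0.10 for Nlrc5, -0.24 to -0.05 for Cd1d1, -0.2974 to -0.0050 for H2-DMb2, 0.04 to 0.15 for Cd74, 0.08 to 0.17 for Rfxank and 0.09 to 0.45 for Rfxap. The causes were not tested.

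Replicate numbers were shared by the groups, and deviations of same-numbered libraries correlated with r = 0.155 over 13211 genes; with 2 pairs this does not establish a pairing. With the replicate block 6444 genes were called in place of 5392, with 17 class I genes (16 higher, 1 lower, Mr1) and 3 class II genes (2 higher, with Rfxap at 0.27 and FDR 0.0439 added, and 1 lower). With 2 libraries per group, small differences are poorly resolved: the SE of tested members was 0.068 to 0.207.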
